A study of Rattus norvegicus with 6 samples.

Results

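Of the 35 genes listed here as enzymes and regulators of sterol and fatty acid synthesis, 33 had a probe set annotated to that gene alone, out of 10411 such genes on the array. Genes were chosen by symbol, and each was read on its probe set of highest mean over the 6 arrays. Hmgcs1 and Stard4 had no such probe set and are not described. The 33 genes comprised 16 of the sterol arm, 13 of the fatty acid arm and 4 regulators.

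The study set 3 rats on an ethanol diet against 3 rats on a control diet, to ask what chronic ethanol consumption does to the pancreas. Each rat gave the RNA of 1 array, so the replicates are separate animals. The labels give no strain, sex, age, ethanol dose or time on the diet. Whole tissue was used, so each value is a mean over all pancreatic cell types. The labelled tissue was checked against acinar cell markers. Among them were the carboxypeptidase Cpa1 and the lipase Pnlip (log2 changes 0.02 and 0.10). The 8 markers had a summed intensity of 1110560 to 1150505 in ethanol rats and 1101913 to 1117567 in control rats. Cpa1, Pnlip, Cel and Ctrb1 all read between 153438 and 171742 on every array. Whether such values lie near the top of the array's range was not tested, so their small changes do not show an equal acinar content.

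Cholesterol is built from acetyl-CoA through mevalonate and isoprenoids to squalene, which is closed to lanosterol and trimmed to cholesterol. Fatty acids are built from the same acetyl-CoA by carboxylation to malonyl-CoA and repeated condensation, and are then elongated and desaturated. Both arms are controlled by the SREBP transcription factors, of which Srebf2 is known mainly for sterol genes and Srebf1 mainly for fatty acid genes. INSIG proteins hold the SREBPs with their escort SCAP in the endoplasmic reticulum when sterols are plentiful, and Insig1 is itself an SREBP target. In liver, ethanol feeding is known to raise fatty acid synthesis genes, and acinar cells need these lipids for the membranes of their secretory pathway.

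The promoters of 4 genes whose ethanol and control rats did not overlap are shown, because SREBPs act on such promoters together with NF-Y and Sp1. Probe sets without overlap are common on the array, as the shares given below show. Of the 35 genes, 28 had an entry in the RefSeq promoter table of the GRCr8 rat assembly, with 29 windows. Pmvk, Fdft1, Acaca and Elovl6, whose rats also did not overlap, had no entry. Each sequence below is the 250 bases before the annotated start, 5′ to 3′ on the gene's strand, and capitals mark the motifs found.
Insig1, chr4:8057770-8058019, minus strand: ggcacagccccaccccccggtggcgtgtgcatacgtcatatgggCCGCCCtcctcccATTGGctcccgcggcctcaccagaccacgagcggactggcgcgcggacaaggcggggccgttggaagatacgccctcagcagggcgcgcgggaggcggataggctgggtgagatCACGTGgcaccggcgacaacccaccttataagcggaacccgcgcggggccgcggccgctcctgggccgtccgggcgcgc
Mvk, chr12:47819504-47819753, minus strand: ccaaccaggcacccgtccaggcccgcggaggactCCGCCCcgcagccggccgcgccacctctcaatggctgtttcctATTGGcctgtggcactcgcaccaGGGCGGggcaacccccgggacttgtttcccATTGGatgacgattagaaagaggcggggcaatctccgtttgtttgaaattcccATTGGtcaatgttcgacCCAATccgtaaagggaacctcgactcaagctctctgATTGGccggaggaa
Sc5d, chr8:51538278-51538527, minus strand: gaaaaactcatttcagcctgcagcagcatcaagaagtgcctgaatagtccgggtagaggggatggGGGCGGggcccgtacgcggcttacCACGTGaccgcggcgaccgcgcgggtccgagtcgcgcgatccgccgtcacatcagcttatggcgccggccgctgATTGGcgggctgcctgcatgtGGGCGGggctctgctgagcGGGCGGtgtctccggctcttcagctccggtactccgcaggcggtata
Idi1, chr17:66547525-66547774, minus strand: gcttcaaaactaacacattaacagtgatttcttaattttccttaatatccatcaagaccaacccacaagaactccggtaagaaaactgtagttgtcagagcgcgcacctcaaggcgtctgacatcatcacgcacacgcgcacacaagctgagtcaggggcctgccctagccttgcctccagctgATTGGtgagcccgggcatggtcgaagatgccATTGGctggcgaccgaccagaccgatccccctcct

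Letters were searched on both strands, and a base may belong to more than 1 motif. The NF-Y box CCAAT was in 79.3% of the 29 windows and in 34% of all 33469 windows of this length. The Sp1-type GC box GGGCGG was in 72.4% of the windows and in 30.5% of all. The E-box CACGTG, which SREBPs and USF factors can bind, was in 10.3% of the windows, Insig1 and Sc5d among them, and in 5.59% of all. The sterol regulatory element, searched as TCACNCCAC, was in 0 of the 29 windows and in 0.974% of all. For so rare a motif, 0 of 29 does not set these windows apart. Elements that differ from these letters were not searched, so the windows may still hold some. By arm, the NF-Y box was in 11 of 14 sterol windows, 7 of 10 fatty acid windows and 5 of 5 regulator windows. The Mvk window held 5 NF-Y boxes and the Idi1 window 2. The windows of all genes were not matched to these by gene type or base composition, so the shares are a description. These matches describe letters and were not related to the measured changes.

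Values are the deposited intensities. Changes are log2 differences, ethanol minus control, on the log2(intensity + 50) scale, which understates the change of dim genes. Probe sets with a mean intensity of at least 406, the 40th percentile, were tested with limma, and an adjusted p under 0.05 over all of them was taken as a change. By this filter 25 of the 33 genes were tested: 11 of the sterol arm, 11 of the fatty acid arm and 3 regulators. Just inside the filter was Me1 with a mean of 434, and just outside was Gpam with a mean of 399.7. Of all 9522 probe sets tested, 33 changed (0.347%), and 0 of the 25 genes did. Before adjustment, limma gave a p under 0.05 for 3 of the 25 with higher and 4 with lower values in ethanol rats, where 8.01% and 10.3% of all tested probe sets did so. In 3 of the 25 genes all ethanol rats lay above all control rats, and in 4 they lay below, against 11.1% and 14.4% of all tested probe sets. These shares are near those of the whole array, so these counts are no result about the module. With dim genes included, 4 of the 33 genes lay above and 4 below, where 1488 and 1761 of all 15866 probe sets did so. In whole tissue, fewer cells of a type and less RNA per cell cannot be told apart.

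None of these genes passed, so the log2 differences of the arms are given as a description. All 11 tested sterol genes had a negative log2 difference, with a median of -0.13 and a range from -0.78 to -0.0085. In the fatty acid arm 10 of 11 were positive, with a median of 0.26 and a range from -0.56 to 0.65. Over all 16 and 13 genes with a probe set, 14 sterol genes were negative with a median of -0.19, and 12 fatty acid genes were positive with a median of 0.26. Of the 11 sterol genes, 4 (Cyp51, Tm7sf2, Msmo1 and Dhcr7) took a positive sign with 1 of the arrays left out, and of the fatty acid genes 4 tested (Acly, Scd, Scd2 and Fads1) took a negative one. The median over all tested probe sets was near 0 (-6.73e-05), and 50% of them were positive. The sterol median minus the fatty acid median was -0.39 over tested genes and -0.44 over all with a probe set. No test of this difference was made, since the genes of an arm share the same 6 rats and regulators. The sterol minus fatty acid mean of a rat varied within diets with a pooled SD of 0.38.

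**Figure D1:**
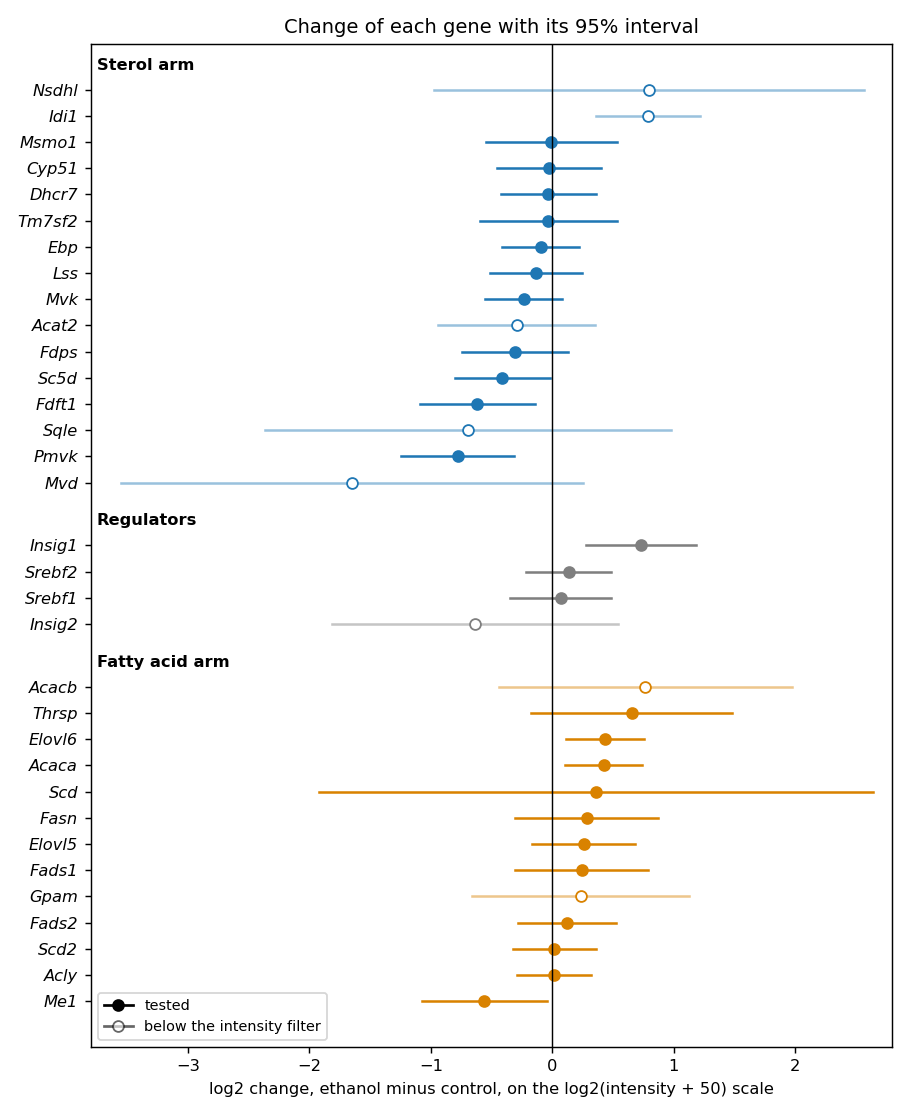
Log2 change of each gene, ethanol minus control, with its 95% interval from limma (horizontal axis), genes grouped by arm and ordered by change. Filled points are tested genes and open points genes below the intensity filter, whose intervals come from a separate fit over all probe sets. Filled points of the sterol arm lie left of 0, from -0.78 for Pmvk to -0.0085 for Msmo1, and those of the fatty acid arm lie right of 0 except Me1.

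In the mevalonate and isoprenoid steps, 5 of 6 genes with a probe set were negative, and the largest tested difference was that of Pmvk, the phosphomevalonate kinase (probe set 1373243_at). Its intensities were 668, 708 and 471 in ethanol rats and 868, 1196 and 1202 in control rats. The groups did not overlap, and ethanol rat 3 was the lowest. The means were 616 ± 127 in ethanol rats and 1089 ± 191 in control rats (SD, n = 3 each), a log2 change of -0.78 (SE 0.20, 95% interval -1.24 to -0.31). It did not pass over all probe sets (limma adjusted p = 0.124).

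Mvk, the mevalonate kinase that acts before Pmvk, had intensities of 1280, 1386 and 1247 in ethanol rats and 1434, 1536 and 1674 in control rats. The ranges again did not overlap, but the difference was small, at -0.24 on the log2 scale (SE 0.14, limma adjusted p = 0.392). The other probe sets of Mvk also gave negative values, -0.28 and -0.50, with overlapping groups. Fdps, which makes farnesyl diphosphate, was at 3108, 4502 and 3902 in ethanol rats and 4606, 5568 and 4050 in control rats. Ethanol rat 2 lay above control rat 3, and the change was -0.31 (95% interval -0.74 to 0.13).

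Idi1, the isopentenyl diphosphate isomerase, went the other way from its neighbours but was too dim to be tested. Its intensities were 418, 600 and 413 in ethanol rats and 241, 237 and 277 in control rats, with no overlap and a log2 change of 0.79 (SE 0.17). A second, dimmer probe set of Idi1 overlapped between the diets (0.37, SE 0.47). Mvd, the mevalonate diphosphate decarboxylase, was read below 0 on 2 ethanol arrays, with -52, 203 and -115 in ethanol rats and 301, 109 and 301 in control rats. Such values are at background, and its log2 change of -1.65 has an interval from -3.55 to 0.25. Acat2, the cytosolic acetoacetyl-CoA thiolase, was also below the filter (-0.29, SE 0.26).

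From squalene to cholesterol, Fdft1 and Sc5d were the genes without overlap. Fdft1 is squalene synthase, the first step committed to sterols, and its brighter probe set 1367839_at read 1349, 1745 and 1390 in ethanol rats and 1900, 3029 and 2123 in control rats. All ethanol rats lay below the control rats, by -0.62 on the log2 scale (SE 0.20, 95% interval -1.09 to -0.15, limma adjusted p = 0.178). The other probe set of Fdft1, 1389906_at, did not show this, with 1203, 919 and 670 in ethanol rats and 983, 960 and 818 in control rats (-0.02, SE 0.21). The probe sets of this gene thus disagree.

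Sc5d, a sterol desaturase of the late pathway, gave the same picture on both of its probe sets. The brighter read 413, 532 and 581 in ethanol rats and 732, 736 and 601 in control rats (-0.41, SE 0.17, limma adjusted p = 0.248). The dimmer read 396, 425 and 370 in ethanol rats and 515, 455 and 643 in control rats (-0.38, SE 0.16, limma adjusted p = 0.257). Neither passed, and neither overlapped between diets.

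The remaining tested genes of these steps lay close to 0. Log2 changes were -0.13 (95% interval -0.51 to 0.24) for the lanosterol synthase Lss, -0.10 (-0.41 to 0.22) for the sterol isomerase Ebp and -0.03 (-0.42 to 0.36) for the sterol reductase Dhcr7. Those of the lanosterol demethylase Cyp51 (-0.02), the sterol reductase Tm7sf2 (-0.03) and the methylsterol oxidase Msmo1 (-0.0085) had intervals reaching at least 0.40 on either side of 0, so moderate differences were not detectable with 3 rats a diet. Sqle, the squalene epoxidase, was at background, with -165, -62 and 55 in ethanol rats and 40, 196 and -8 in control rats. Nsdhl, a sterol dehydrogenase, was also dim, with control rat 3 at -2 (0.79, SE 0.70).

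**Figure D2:**
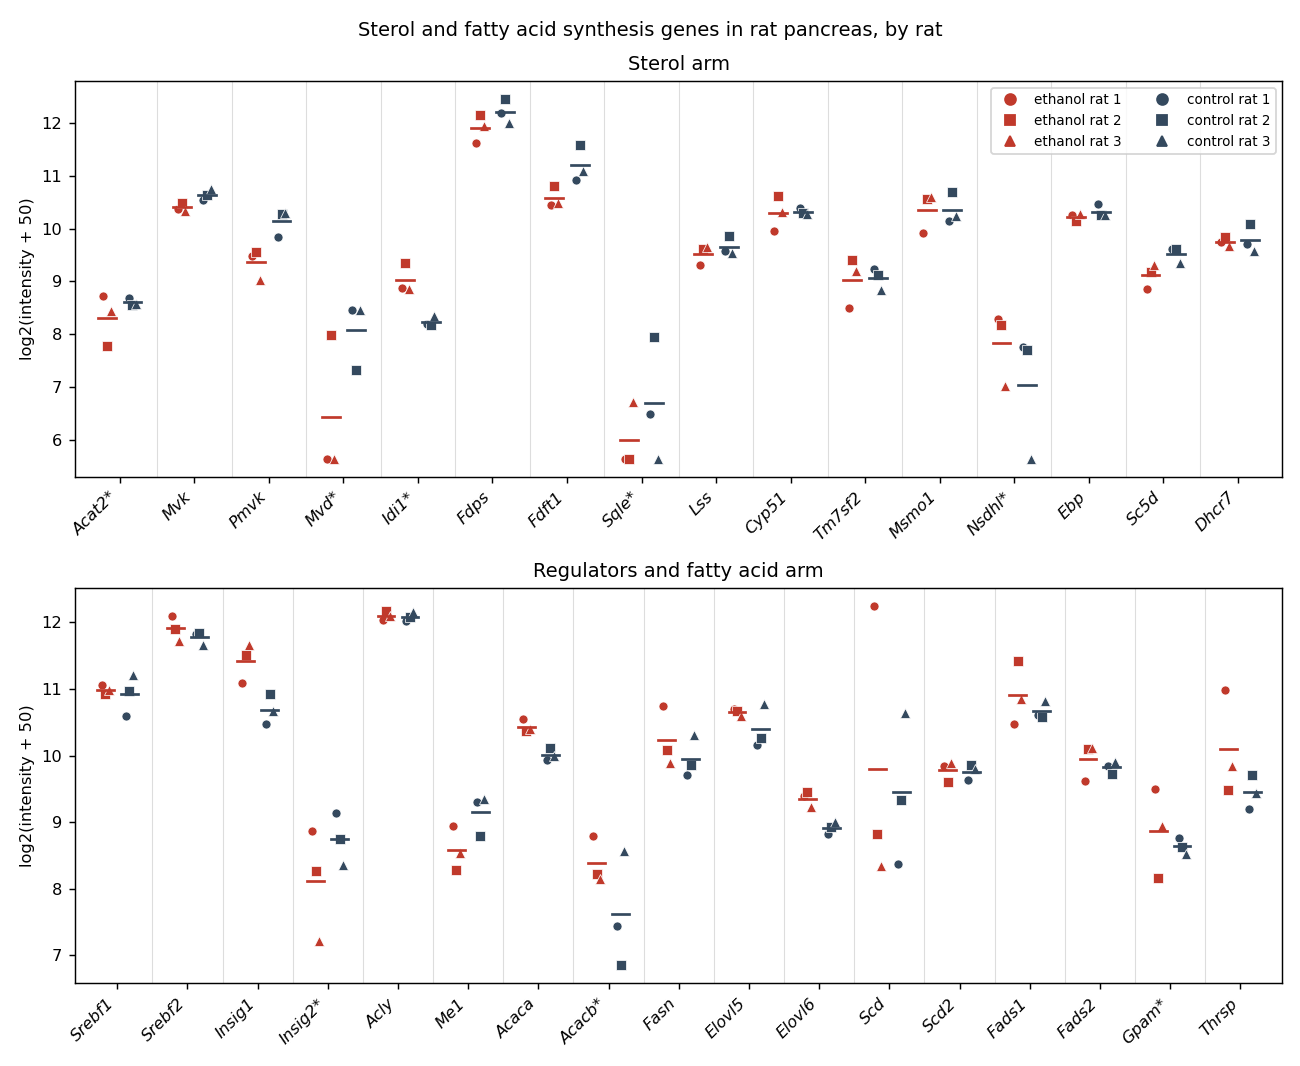
Log2(intensity + 50) of each gene (vertical axis) in each rat, with ethanol rats in red at the left of each gene and control rats in dark blue at the right; symbols mark the rat, bars the group mean, and an asterisk a gene below the intensity filter. Pmvk, Fdft1, Mvk and Sc5d have ethanol rats below all control rats, and Insig1, Acaca, Elovl6 and the dim Idi1 have them above; Scd and Thrsp are spread by ethanol rat 1.

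Among the regulators, Insig1 had the largest tested difference. Probe set 1367894_at read 2125, 2871 and 3188 in ethanol rats and 1370, 1897 and 1580 in control rats. Every ethanol rat lay above every control rat, with means of 2728 ± 546 in ethanol rats and 1616 ± 265 in control rats (SD, n = 3 each). The log2 change was 0.73 (SE 0.20, 95% interval 0.28 to 1.19), and it did not pass (limma adjusted p = 0.135). Its sign was opposite to that of Pmvk and Fdft1, and none of these genes passed the adjustment.

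The SREBP genes themselves differed little. Srebf2 was at 4336, 3784 and 3340 in ethanol rats and 3569, 3630 and 3181 in control rats (0.14, 95% interval -0.22 to 0.49). Srebf1 was at 2093, 1896 and 1969 in ethanol rats and 1496, 1945 and 2314 in control rats (0.07, 95% interval -0.34 to 0.48). Both overlapped between diets, and the processed, active SREBP proteins were not measured. The second tested probe set of Srebf1 also overlapped (0.21, SE 0.17). A dimmer probe set of Srebf2, below the filter, did not overlap. It had ethanol rats at 323, 277 and 263 and control rats at 193, 148 and 213 (0.53, SE 0.15). Insig2, the paralogue of Insig1, was below the filter and overlapped (-0.64, SE 0.47).

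In the fatty acid arm, Acaca and Elovl6 were the genes without overlap. Acaca, the cytosolic acetyl-CoA carboxylase that makes malonyl-CoA, read 1446, 1266 and 1297 in ethanol rats and 926, 1054 and 973 in control rats on probe set 1370893_at. All ethanol rats were higher, by 0.42 on the log2 scale (SE 0.14, 95% interval 0.11 to 0.74, limma adjusted p = 0.174). On its other probe set the groups overlapped (0.15, SE 0.25).

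Elovl6, which elongates long saturated fatty acids, read 622, 649 and 546 in ethanol rats and 404, 437 and 461 in control rats. The groups were tight and apart, with a log2 change of 0.44 (SE 0.14, 95% interval 0.12 to 0.76), which did not pass (limma adjusted p = 0.169). Its relative Elovl5, an elongase of polyunsaturated fatty acids, was at 1615, 1586 and 1494 in ethanol rats and 1096, 1184 and 1694 in control rats. Control rat 3 was the highest of all, so the groups overlapped (0.26, SE 0.18).

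The supply of acetyl-CoA and NADPH did not follow the same sign. Acly, the ATP citrate lyase, was at 4169, 4578 and 4317 in ethanol rats and 4096, 4306 and 4517 in control rats, with a narrow interval around 0 (0.02, 95% interval -0.29 to 0.32). Me1, the cytosolic malic enzyme, was at 443, 262 and 320 in ethanol rats and 583, 393 and 602 in control rats, the negative gene of the arm (-0.56, SE 0.22, limma adjusted p = 0.240). Ethanol rat 1 lay above control rat 2. Its other probe set, below the filter, had the opposite sign (0.97, SE 0.56).

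The desaturases Fads1 and Fads2, which make polyunsaturated fatty acids, were at 0.24 (SE 0.24) and 0.12 (SE 0.18). Fads1 was at 1367, 2694 and 1792 in ethanol rats and 1519, 1482 and 1758 in control rats, with the highest and the lowest rat of the set on ethanol. Scd2, a stearoyl-CoA desaturase, was at 0.02 (95% interval -0.32 to 0.36). Its dimmest probe set, below the filter, read 250, 312 and 244 in ethanol rats and 216, 32 and 172 in control rats, without overlap (0.91, SE 0.47). Acacb, the mitochondrial acetyl-CoA carboxylase, was below the filter (0.76, SE 0.48).

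Scd, Thrsp, Fasn and Gpam were set apart by ethanol rat 1. Scd, the other stearoyl-CoA desaturase, read 4815, 401 and 274 in ethanol rats and 281, 593 and 1544 in control rats. Ethanol rat 1 was 3.12 times the next highest rat, while the remaining ethanol rats lay among or below the control rats. Its log2 change of 0.36 (SE 0.99) was -0.87 without ethanol rat 1 and -0.18 without control rat 1. Thrsp, a lipogenic factor, read 1972, 662 and 867 in ethanol rats and 535, 787 and 644 in control rats (0.65, SE 0.36), and 0.21 without the array of ethanol rat 1. On a second probe set of Thrsp the ethanol rats read 2003, 172 and 265 and the control rats 271, 451 and 752 (0.05, SE 0.76). Ethanol rat 1 was again alone at the top.

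Fasn, the fatty acid synthase, read 1662, 1034 and 895 in ethanol rats and 783, 874 and 1216 in control rats (0.28, SE 0.26), and 0.03 without ethanol rat 1. Its other probe set read 1352, 459 and 521 in ethanol rats and 616, 843 and 791 in control rats, with the opposite sign (-0.10, SE 0.36). Gpam, the mitochondrial glycerol phosphate acyltransferase that starts glycerolipid synthesis, was below the filter at 676, 235 and 442 in ethanol rats and 383, 344 and 318 in control rats. Its change of 0.23 (SE 0.35) was -0.09 without ethanol rat 1. Scd and Gpam thus took the other sign without that rat, while with each array left out in turn the change ran from 0.37 to 0.47 for Acaca and from 0.39 to 0.50 for Elovl6.

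**Figure D3:**
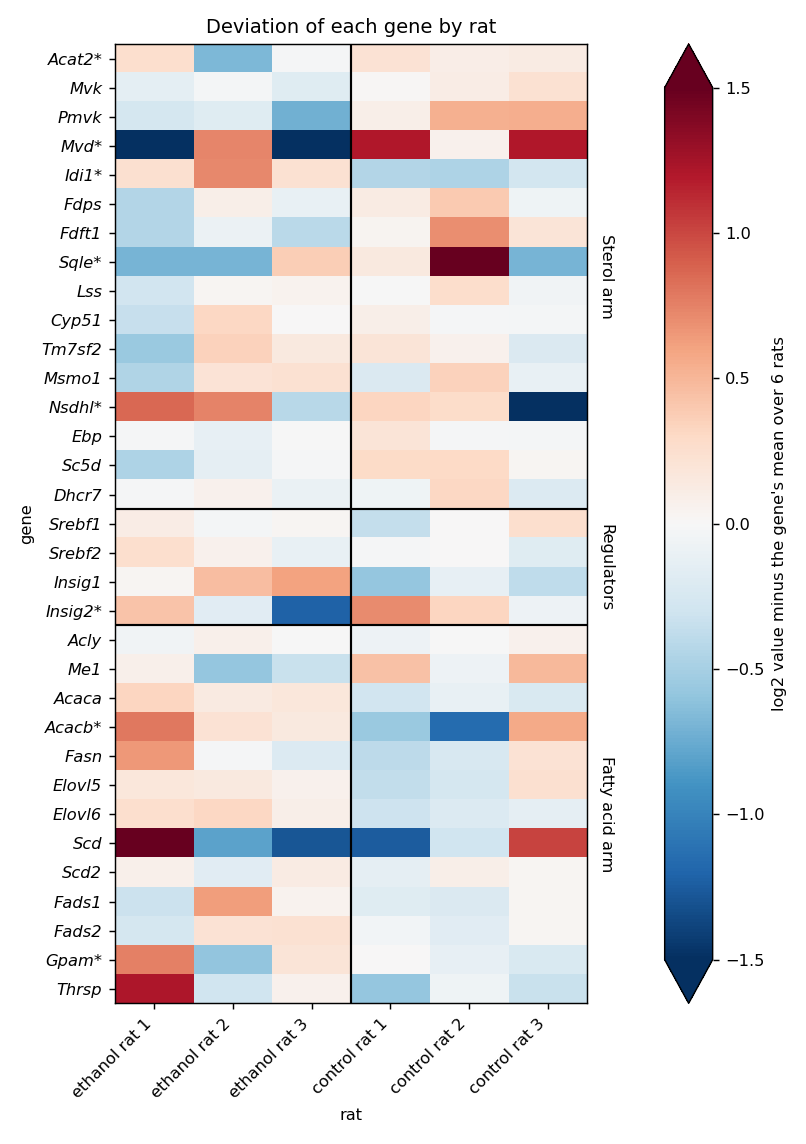
Deviation of each gene in each rat, as its log2(intensity + 50) minus the gene's mean over the 6 rats (colour, red higher and blue lower, capped at 1.5), with ethanol rats at the left; an asterisk marks a gene below the intensity filter. The column of ethanol rat 1 is blue for most sterol genes and red for Scd, Thrsp, Fasn, Gpam and Acacb.

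Single rats of both diets weighed on the arms. Ethanol rat 1 held the lowest value of 7 of the 11 tested sterol genes (63.6%) and the highest of 4 of the 11 tested fatty acid genes (36.4%), where it held the lowest of 22.1% and the highest of 21.3% of all tested probe sets. It also held the lowest of 2 of the 11 fatty acid genes. Control rat 2 held the highest value of 6 of the 11 sterol genes (54.5%, against 15.7% of all tested probe sets), and control rat 1 the lowest of 6 of the 11 fatty acid genes (54.5%, against 14.5%). Averaged over the tested genes of an arm, the sterol level of ethanol rat 1 was -0.31 from the mean of the 6 rats and its fatty acid level 0.43. Ethanol rats 2 and 3 were at 0.04 and -0.10 for the sterol arm and at -0.03 and -0.09 for the fatty acid arm. The control rats were at 0.07, 0.27 and 0.03 for the sterol arm and at -0.29, -0.14 and 0.13 for the fatty acid arm, so ethanol rats 2 and 3 lay within the control range in the fatty acid arm. In the sterol arm ethanol rat 2 lay within it and ethanol rat 3 below. The sterol median was -0.11 without ethanol rat 1 and -0.22 without ethanol rat 2. The fatty acid median was 0.21 without ethanol rat 1, 0.15 without control rat 1 and 0.42 without control rat 3.

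Markers of other cell types were read beside the lipid genes, and 0 of those tested passed the adjustment. Of 9 adipocyte markers, 6 had a probe set and 3 were tested, and none of the 6 was at or below 0 on any array. Their summed intensity was 8323, 9042 and 9683 in ethanol rats and 6031, 5041 and 7307 in control rats, without overlap, and was carried mainly by the lipoprotein lipase Lpl (4116, 5981 and 7065 in ethanol rats, 3533, 2255 and 4353 in control rats). The adipocyte markers did not agree on which rat was high. Ethanol rat 1 was the highest for Fabp4 (1846, against 880 to 1450 in the other rats), Cfd (1718, against 663 to 1079) and Lep (314, against 79 to 233). It was the lowest ethanol rat for Lpl, for the summed markers and for Lipe, which read 112, 467 and 348 in ethanol rats and 92, 439 and 269 in control rats. Averaged on the log2 scale over the 6 markers, ethanol rats were at 0.24, 0.14 and 0.07 from the mean of the 6 rats. Control rats were at -0.40, -0.14 and 0.08. By this measure ethanol rat 1 was the highest and control rat 1 the lowest, as in the fatty acid arm. Plin1 read 217, 190 and 78 in ethanol rats and 76, 259 and 177 in control rats. Cfd read 1718, 1069 and 1079 in ethanol rats and 780, 663 and 856 in control rats. Its ethanol rats all lay above its control rats, as in 11.1% of all tested probe sets. Log2 changes of the tested adipocyte markers were 0.69 for Cfd (SE 0.21, limma adjusted p = 0.164), 0.77 for Lpl (SE 0.28, limma adjusted p = 0.209) and -0.13 for Fabp4 (SE 0.24). Ethanol rat 1 was the lowest of the 6 rats for the summed markers of islet cells (115601, against 148506 to 181833), of leukocytes (5138, against 5897 to 7800), of duct cells (660, against 907 to 1187) and of stellate cells and fibroblasts (9782, against 10207 to 17152). Erythroid markers had sums of 24346 to 31650 in ethanol rats and 14138 to 21085 in control rats over 3 genes. The hepatocyte sum was 3785 to 4205 in ethanol rats and 3337 to 4493 in control rats. Of the brightest markers, log2 changes were 0.80 and 0.64 for the globins Hbb and Hba-a3, -0.09 and -0.17 for the insulins Ins2 and Ins1, and -0.05 and -0.14 for the matrix genes Col3a1 and Dcn. They were 0.02 for Lyz2 and -0.52 for Cd74 of leukocytes, -0.24 for Spp1 of ducts, and 0.17 for Serpina1 and 0.10 for Alb of hepatocytes. Krt19 of ducts, at 0.49 (SE 0.30), was below the filter and not tested. The part of these cell types in the values of the lipid genes was not tested.

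Other genes of lipid metabolism, taken from whole pathway lists, showed 0 changes by limma in 7 lists. The counts before adjustment given below stand beside 8.01% of all tested probe sets with higher and 10.3% with lower values, and with 5 to 17 genes a list they are too few to be read as a result. In SREBP processing and sterol sensing, 0 of 6 tested genes passed, the median was -0.23, and before adjustment a limma p under 0.05 was given to 1 gene, which had lower values in ethanol rats. Scap, the SREBP escort, was at 19, 425 and 367 in ethanol rats and 676, 710 and 611 in control rats. All ethanol rats were lower (-1.58, SE 0.65, limma adjusted p = 0.246), with ethanol rat 1 near background. Mbtps1, a protease that cuts SREBPs, was at 1284, 1295 and 1165 in ethanol rats and 1672, 1411 and 1412 in control rats (-0.25, SE 0.14, limma adjusted p = 0.382).

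Among 5 tested genes of other sterol and isoprenoid enzymes the median was -0.20, and 0 had a limma p under 0.05 before adjustment. The members of smallest p were the farnesyltransferase subunits Fnta (-0.28, SE 0.15) and Fntb (-0.35, SE 0.19). Cholesterol uptake, storage and export (12 genes, median -0.02) likewise had 0, and its genes of smallest p were Soat1, which esterifies cholesterol (0.39, SE 0.22), and Lcat (-0.97, SE 0.56).

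Other fatty acid enzymes (14 genes) had a median of -0.05, and 0 had a limma p under 0.05 before adjustment. Elovl1, an elongase of very long chains, was at -0.29 (SE 0.14) and the transporter Slc27a2 at 0.41 (SE 0.21). Of 7 genes of NADPH supply (median -0.08), 1 had a limma p under 0.05 before adjustment. That gene was H6pd, the glucose 6-phosphate dehydrogenase of the endoplasmic reticulum, at 594, 577 and 388 in ethanol rats and 919, 819 and 746 in control rats (-0.64, SE 0.19, limma adjusted p = 0.151). The next, the cytosolic isocitrate dehydrogenase Idh1, was at -0.25 (SE 0.15, limma adjusted p = 0.405).

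Glycerolipid synthesis (17 genes, median -0.04) had 1 gene with higher and 3 with lower values in ethanol rats at a limma p under 0.05 before adjustment. Lpin3, a phosphatidate phosphatase, was at 1455, 1828 and 1518 in ethanol rats and 2819, 2395 and 2750 in control rats (-0.72, SE 0.15, limma adjusted p = 0.0926). This was the smallest adjusted p among the lipid genes examined, and it did not pass. Pisd, which makes phosphatidylethanolamine in mitochondria, was at -0.70 (SE 0.19, limma adjusted p = 0.135). In the list of AMPK and lipogenic regulators (14 genes, median -0.09) these counts were 1 and 2, near the shares of all tested probe sets. Prkag1, a subunit of the energy sensor AMPK, was at 423, 798 and 829 in ethanol rats and 1182, 1146 and 1253 in control rats (-0.82, SE 0.24, limma adjusted p = 0.154). The nuclear receptor Rxrb was at -0.57 (SE 0.15, limma adjusted p = 0.132), and all ethanol rats were lower for both genes.

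**Figure D4:**
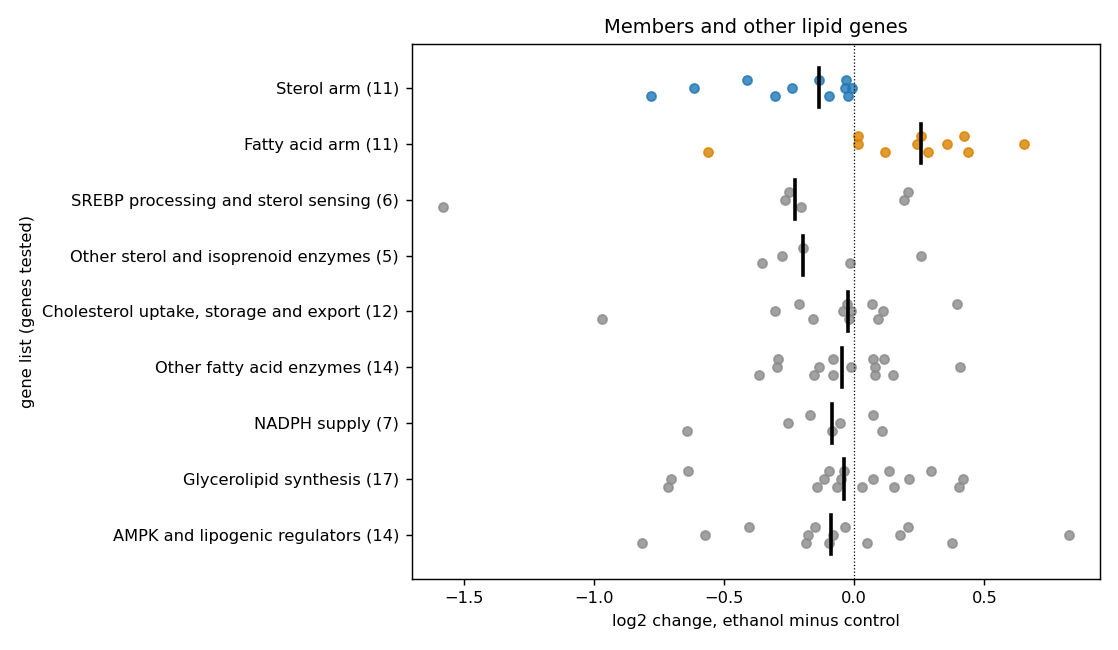
Log2 change, ethanol minus control (horizontal axis), of each tested gene of the sterol arm, the fatty acid arm and 7 further lists of lipid genes, with the number of genes tested in brackets and the list median as a black bar. The medians are -0.13 for the sterol arm and 0.26 for the fatty acid arm, and between -0.23 and -0.02 for the other lists.

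Probe sets of the same gene were set beside each other for 14 genes with more than 1. Of their 17 further probe sets, 13 had the sign of the brighter one and 4 the opposite. Of the 10 that were tested, 3 had the opposite sign (Cyp51, Fasn and Scd2), each with a change within 0.10 of 0 and overlapping groups.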

How the data were processed

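Gene expression was measured on single-colour Affymetrix rat arrays in the pancreas of 3 rats on an ethanol diet and 3 on a control diet. Per the labels' protocols, 5 micrograms of total RNA were made into biotinylated cRNA. The deposited values are intensities, whole numbers on a linear scale. How the authors computed and normalized them is not given in the sources used here. Array medians were 543 or 544, and 931 to 949 values on each array lay below 0. Arrays so equalised cannot show a difference in total RNA.

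After removal of 57 control probe sets, 15866 remained, of which 12783 had 1 gene symbol in the platform annotation, 312 several and 2771 none. All 33 genes matched RefSeq by gene ID. Values below 0 were set to 0, 50 was added and log2 was taken. Probe sets at or above the 40th percentile of mean intensity (9522) were fitted with limma 3.58.1 in R 4.3.3. The fit had 2 groups and no block, and its p-values were adjusted by Benjamini-Hochberg. SEs and intervals of probe sets below the filter came from a separate limma fit over all 15866 probe sets. Their moderation thus differs from that of tested genes. The procedure was tested on simulated data.

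The genes, arms and lists were chosen with earlier results of these data known. All 33 genes are named. Of each further list the genes that passed are named, or else the 2 of smallest p, and of each marker list the 2 of highest mean; Cfd, Lep, Lipe and Plin1 were named after their values were seen, and marker lists are also given as sums. Alternatives changed the constant (20 or 100), the normalization (quantile, or medians made equal), the filter (none, or the 60th percentile), the moderation (intensity trend), the threshold (0.10), the probe set of a gene (mean of all) and the arms (regulators put in them), added a replicate block, or left out each array; a filter on mean log2 intensity was chosen after seeing the data.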

Additional observations from a re-analysis of the deposited data

How the results depend on the processing

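By limma, 0 of the lipid synthesis genes changed under each of the 17 settings tried. The count over all probe sets, 33 in the settings reported, was 11 with a constant of 20, 52 with a constant of 100, 16 after quantile normalization, 0 without a filter, 130 with a filter at the 60th percentile, 242 with an intensity trend and 188 at an adjusted p under 0.10. With the replicate block it was 5. Rats of the same number correlated at -0.04, 0.02 and -0.15 in their deviations from the diet means, and 0 of 6 correlated best with their own number. With so few rats a diet, these correlations cannot decide whether the numbers pair the rats. With single arrays left out the count ran from 2 to 44. The smallest limma adjusted p over the alternatives was 0.0633 for Insig1, 0.0743 for Pmvk, 0.107 for Acaca and 0.108 for Fdft1. Over the alternatives the arm medians ran from -0.22 to -0.10 for the sterol arm and from 0.15 to 0.42 for the fatty acid arm. Their difference ran from -0.60 to -0.32. Apart from the -0.10, given by regulators put in the arms, these ends came from single arrays left out. The intensity trend and the replicate block cannot move these medians. Single genes took the other sign in 19 of 520 values, and the cause was not tested. The filters, the intensity trend and the replicate block leave the log2 change of a gene unaltered, so their values could not reverse. Apart from a reversal of Cyp51 with its probe sets averaged (0.035), all reversals came from single arrays left out. With single arrays left out, the log2 change ran from -0.19 to 0.14 for Cyp51, -0.22 to 0.23 for Tm7sf2, -0.13 to 0.21 for Msmo1, -0.14 to 0.11 for Dhcr7, -0.094 to 0.21 for Srebf1, -0.020 to 0.051 for Acly, -0.87 to 1.09 for Scd, -0.048 to 0.11 for Scd2, -0.014 to 0.46 for Fads1 and -0.086 to 0.59 for Gpam. The number of rats limits these values, since over tested probe sets the median SE was 0.18.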
